A study of Mus musculus with 6 samples.

Results

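Chemokines are small secreted proteins that set up gradients along which leukocytes migrate, and their receptors are G protein-coupled receptors on the migrating cells. In the colon some ligands are made constantly by epithelium, lymphatic vessels and stroma and hold lymphocytes and plasma cells in the mucosa, while others are induced in inflammation and draw neutrophils and monocytes. Atypical receptors bind chemokines without the usual G protein signal and remove or transport them. Interleukin-22 acts mainly on epithelial cells, through STAT3, and is known for inducing antimicrobial and barrier genes there.

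The genes described here were chosen by name and type: all protein-coding genes of the deposited tables whose symbol begins with Ccl, Cxcl, Cx3cl, Xcl, Ccr, Cxcr, Cx3cr, Xcr or Ackr followed by a digit. This gave 60 of 35275 genes, 37 ligands and 23 receptors. Of the 60, 44 had enough counts to be tested (26 ligands and 18 receptors) and 16 did not (11 ligands and 5 receptors). The filter asked for about 0.512 CPM (counts scaled to a common library size) in at least 2 libraries. Of the 44 tested genes, 33 reached that level in all 6 libraries and 11 in fewer; Cxcl17 reached it in no PBS library, so it entered the test only through the treated groups.

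RNA was sequenced from colon of C57BL/6 mice in 3 groups of 2 libraries, collected after 6 h. The control group received phosphate-buffered saline (PBS). The second group received the wild-type cytokine (WT IL-22, 200 µg per mouse) and the third 22-B3, one of a set of engineered interleukin-22 variants (200 µg per mouse). The labels give no age, sex or route, and do not say that each library came from its own animal. The p-values therefore describe library-to-library spread, part or all of which may be technical. Total counts ranged from 17428528 to 22081904 per library, and n = 2 for every mean ± SD below. Socs3, the STAT3 feedback inhibitor used here as a check of the labels, had 7.81 and 7.08 CPM with PBS, 248 and 254 CPM with WT IL-22, and 25.3 and 32.0 CPM with 22-B3. Epithelium markers summed to between 11267 and 13424 CPM. Variation within a group, as a biological coefficient of variation over all tested genes, was 5.47% for PBS, 17.1% for WT IL-22 and 22% for 22-B3. For fits with a PBS library left out or the PBS libraries summed, the share of all genes called is not given here. Leaving out a library meant filtering again, so 47 genes of the family were tested without PBS replicate 1 and 46 without PBS replicate 2. The calls below needed both PBS libraries. With these summed into 1, edgeR called 0 of the 44 genes in WT IL-22 against PBS, with 9 at an unadjusted p under 0.05. It also called 0 without PBS replicate 1 (5 at an unadjusted p under 0.05) and without PBS replicate 2 (10).

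Levels differed widely across the family. On the FPKM scale, which corrects for gene length, Ccl6 was the most abundant ligand in every library, at 268 to 403 FPKM. Ccl6 is a CC chemokine of myeloid cells known from the mouse. It was followed by Ccl21a, the lymphatic and lymphoid stroma ligand of Ccr7, at 67.6 to 121 FPKM, and by Ccl28, an epithelial ligand that attracts antibody-secreting plasma cells, at 19.4 to 37.8 FPKM. Cx3cl1, a membrane-anchored ligand of Cx3cr1, stood at 19.5 to 33.3 FPKM and Cxcl12, the stromal ligand of Cxcr4, at 15.7 to 22.7 FPKM. Ccl6 alone made up 54.6% to 64.7% of the FPKM summed over ligands, and Ccl21a 13.1% to 17.5%. The ranges of Ccl28, Cx3cl1 and Cxcl12 overlapped, so their order depended on the library. The receptors were far lower, with a sum of 24.4 to 46.0 FPKM over all 23. The atypical receptor Ackr3, which binds Cxcl12, led them at 4.67 to 10.1 FPKM.

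**Figure D1:**
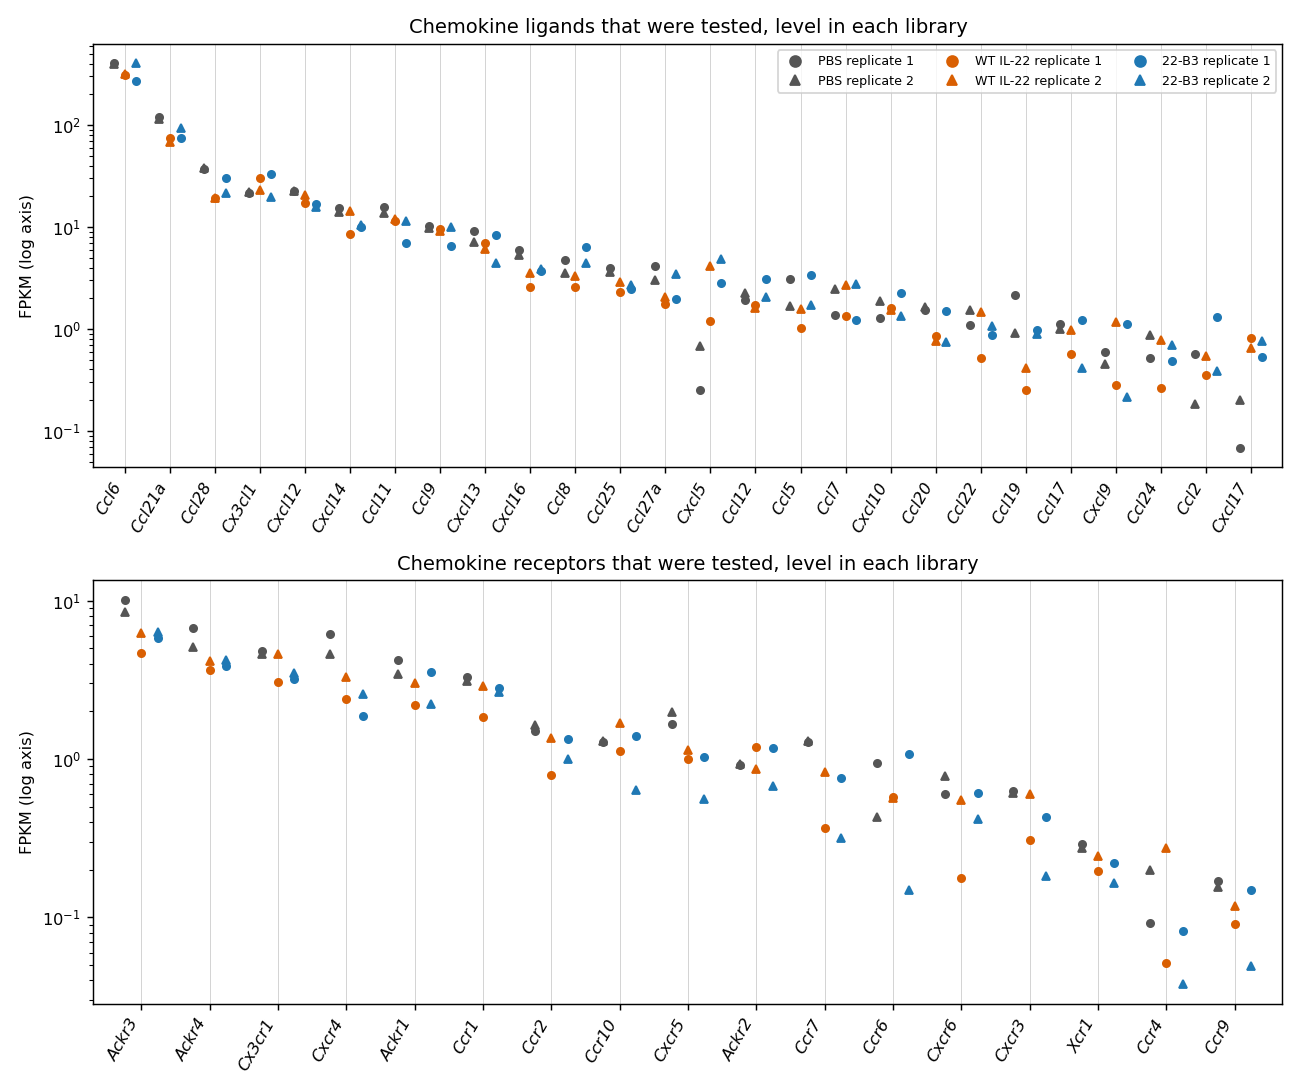
Level of the tested genes described here in each library, in FPKM on a log axis, for ligands (top) and receptors (bottom) ordered by mean level; colours are groups and marker shapes replicates. Ccl6 lies above all other ligands in every library, and Cxcl5 and Cxcl17 are the ligands whose 4 treated libraries all lie above both PBS libraries.

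WT IL-22 raised 1 family gene and lowered 6 (edgeR's quasi-likelihood test, Benjamini-Hochberg adjusted over 15628 genes, adjusted p under 0.05). Cxcl5, a neutrophil-attracting ligand, rose. The ligands Ccl28, Cxcl16, Ccl21a and Ccl19 and the receptors Cxcr4 and Ackr3 fell. As shares of the 44 tested genes these are 2.27% higher and 13.6% lower, beside 9.9% higher and 6.74% lower among all genes tested (16.6% in either direction). At an unadjusted p under 0.05, 2 were higher and 11 lower, beside 18.7% and 16.2% of all genes. Of the 44 genes 35 had a negative log2 change, beside 51% of all genes, with a median log2 change of -0.47 beside -0.01. The groups did not overlap, with WT IL-22 lower, for 31 of the 44 genes, beside 35.3% of all genes, and with WT IL-22 higher for 3, beside 34.2%.

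With 22-B3 against PBS edgeR called 0 of the 44 genes, with 2 higher and 10 lower at an unadjusted p under 0.05, beside 11.5% and 6.74% of all genes. DESeq2 called 2 there, Cxcl5 higher and Cxcr4 lower, and limma on log2 FPKM called 0, with 13 at an unadjusted p under 0.05. Among all genes 0.947% rose and 0.154% fell with 22-B3 (1.1% in either direction). Of the 44 genes 32 had a negative log2 change with 22-B3, beside 49% of all genes, with a median of -0.41 beside 0.01; both comparisons share the PBS libraries. The 22-B3 libraries lay below both PBS libraries for 22 of the 44 genes, beside 25.5% of all genes, and above them for 2, beside 27.7%.

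**Figure D2:**
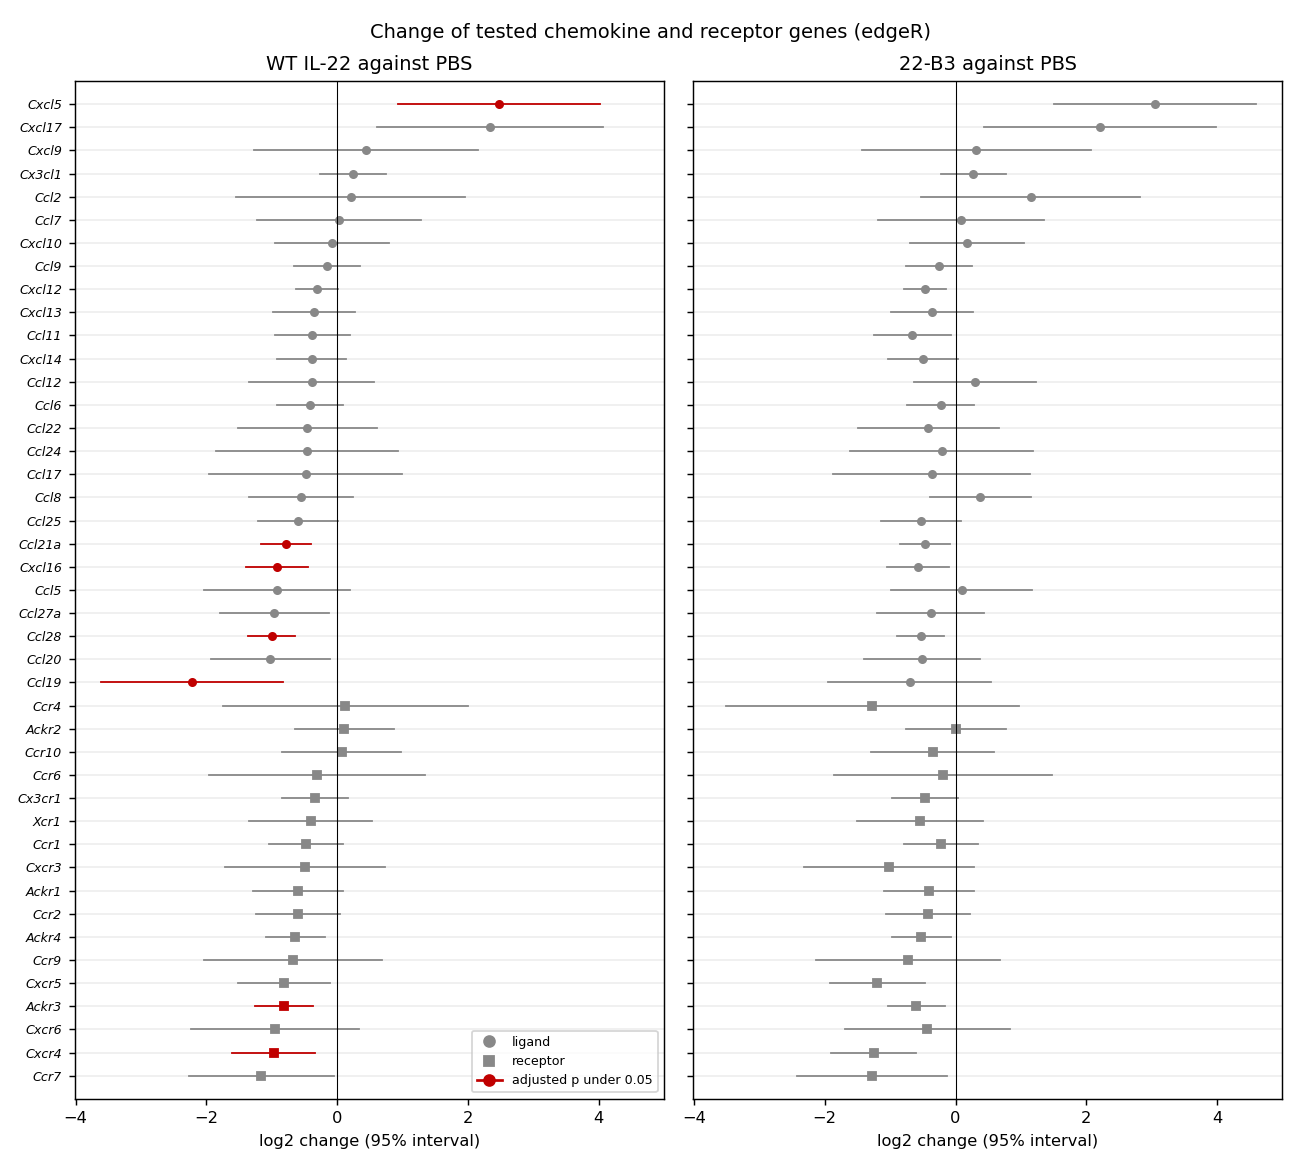
Log2 change of the tested genes described here against PBS with its 95% interval, for WT IL-22 (left) and 22-B3 (right), ligands as circles and receptors as squares, red where the adjusted p was under 0.05. The 7 red genes are all in the WT IL-22 panel, 1 to the right of 0 and 6 to the left.

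Among the neutrophil-attracting CXC ligands, only Cxcl5 had enough counts to be tested. Cxcl5 (ENSMUSG00000029371, chromosome 5, 90759299 to 90761625, plus strand, mm10) acts through the receptor Cxcr2. It had 0.411 and 1.14 CPM with PBS, 1.92 and 6.75 CPM with WT IL-22, and 4.54 and 8.41 CPM with 22-B3. All 4 treated libraries were above both PBS libraries, and the WT IL-22 pair was widely spread. The log2 change was 2.47 with WT IL-22 (95% interval 0.93 to 4.02, adjusted p by edgeR = 0.0406) and 3.05 with 22-B3 (1.51 to 4.59, adjusted p by edgeR = 0.0792). Without WT IL-22 replicate 2, the higher library, the WT IL-22 change was 1.27 (adjusted p by edgeR = 0.197), and the call was also lost without a low-count filter (adjusted p by edgeR = 0.128), without either PBS library (0.153 to 0.26 with these left out or summed) and with limma on log2(FPKM + 0.1) (adjusted p = 0.0572); over all alternatives the adjusted p ran from 0.000303 to 0.26. For 22-B3, edgeR called Cxcl5 without either WT IL-22 library.

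The other ligands of this group lie beside Cxcl5 on chromosome 5, between 90786103 and 90905909. Cxcl1, with 2 to 17 counts per library, had 0.103 and 0.364 CPM with PBS, 0.794 and 0.4 CPM with WT IL-22, and 0.28 and 0.278 CPM with 22-B3. Both WT IL-22 libraries were above the PBS libraries, at too few counts to judge. Cxcl3 had at most 7 counts, Cxcl2 at most 4 and Cxcl15 at most 1 in any library. Of their receptors, Cxcr2 had at most 1 count and Cxcr1 had 0 counts in all 6 libraries. Among neutrophil markers, S100a8 stayed at or below 0.334 CPM and Csf3r had 0.565 and 0.676 CPM with PBS, 0.327 and 1.07 CPM with WT IL-22, and 0.505 and 0.557 CPM with 22-B3. Ly6g, which the list also holds, rose by 1.38 on the log2 scale with WT IL-22 and by 1.59 with 22-B3 (adjusted p by edgeR = 0.00217 and 0.00369), from 107 and 119 CPM with PBS. It made up most of the list's sum, while the markers S100a8, Csf3r and Retnlg stayed near or below 1 CPM, and reads of other Ly6 family genes could be split with it.

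The promoters of these and other ligands are shown because the family holds many known targets of NF-kappaB, a transcription factor of inflammation. They are from RefSeq (GRCm38.p6), 250 bases before to 50 after the annotated start, 5′ to 3′ on the gene's strand, with matches to the NF-kappaB consensus, searched on both strands, in capitals:
Cxcl1 (chr5:90890995-90891294, plus strand): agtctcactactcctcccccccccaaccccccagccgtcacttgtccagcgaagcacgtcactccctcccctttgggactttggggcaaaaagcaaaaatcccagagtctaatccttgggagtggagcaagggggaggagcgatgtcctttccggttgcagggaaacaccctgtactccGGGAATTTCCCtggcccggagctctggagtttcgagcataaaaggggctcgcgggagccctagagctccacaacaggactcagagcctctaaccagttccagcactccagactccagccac
Cxcl2 (chr5:90903649-90903948, plus strand): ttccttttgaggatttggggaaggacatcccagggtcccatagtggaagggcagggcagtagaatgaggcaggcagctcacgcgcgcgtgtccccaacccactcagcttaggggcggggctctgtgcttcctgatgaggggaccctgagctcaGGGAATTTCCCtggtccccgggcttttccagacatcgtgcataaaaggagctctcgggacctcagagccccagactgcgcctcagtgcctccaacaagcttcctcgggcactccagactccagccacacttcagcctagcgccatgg
Cxcl10 (chr5:92348840-92349139, minus strand): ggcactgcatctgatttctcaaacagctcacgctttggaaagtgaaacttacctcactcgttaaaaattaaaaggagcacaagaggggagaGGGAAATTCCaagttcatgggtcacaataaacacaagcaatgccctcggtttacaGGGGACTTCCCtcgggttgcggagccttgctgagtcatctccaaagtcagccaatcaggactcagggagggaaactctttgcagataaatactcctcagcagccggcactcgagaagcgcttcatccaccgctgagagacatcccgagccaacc
Ccl20 (chr1:83116516-83116815, plus strand): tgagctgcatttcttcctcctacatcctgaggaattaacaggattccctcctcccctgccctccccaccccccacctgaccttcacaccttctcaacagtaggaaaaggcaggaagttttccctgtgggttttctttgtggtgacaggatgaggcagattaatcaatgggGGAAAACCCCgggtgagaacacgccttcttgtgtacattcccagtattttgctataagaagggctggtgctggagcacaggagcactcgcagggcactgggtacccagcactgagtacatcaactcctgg
Ccl28 (chr13:119623569-119623868, plus strand): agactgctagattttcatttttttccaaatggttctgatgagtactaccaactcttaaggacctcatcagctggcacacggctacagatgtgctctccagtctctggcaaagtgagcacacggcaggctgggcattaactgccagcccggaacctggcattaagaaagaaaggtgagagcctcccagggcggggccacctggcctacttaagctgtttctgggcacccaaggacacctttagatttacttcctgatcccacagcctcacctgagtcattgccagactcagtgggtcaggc

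The table held promoters for 46 of the 60 genes, 53 in all. A match to the consensus was found in 12 of the 53 (22.6%), beside 8.46% of all 32841 promoters of this length. The 12 genes were Ackr2, Ccl1, Ccl20, Ccl27a, Ccl9, Ccr1, Ccr3, Ccr6, Cxcl1, Cxcl10, Cxcl2 and Cxcl3. In Cxcl1 and Cxcl2 each stretch holds 2 overlapping matches, and in Ccl20 the match begins 80 bases before the start. Of the 12 genes 7 were tested, and their log2 changes with WT IL-22 ran from -1.02 to 0.11 with 0 passing in edgeR. The promoters of Ccl28, Ccl21a, Ccl19, Cxcr4 and Ackr3, which fell with WT IL-22, had no match within these 300 bases. No promoter was available for Cxcl5, which rose, or for Cxcl16, which fell, so these were not searched. The STAT motif TTCNNNGAA, searched on both strands, was found in 4 of the 53 (7.55%), those of Ccl17, Ccr1l1, Ccr6 and Cxcl14, beside 8.3% of all promoters.

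Ligands grouped here as epithelial included the clearest fall. Ccl28 (ENSMUSG00000074715, chromosome 13, 119623819 to 119654354, plus strand) binds Ccr10 and Ccr3. It had 138 and 145 CPM with PBS, 70.1 and 71.0 CPM with WT IL-22, and 111 and 84.5 CPM with 22-B3. The groups did not overlap: both WT IL-22 libraries were lowest and both 22-B3 libraries lay between them and PBS. The mean was 142 ± 4.78 CPM with PBS and 70.5 ± 0.596 CPM with WT IL-22, a log2 change of -1.004 (95% interval -1.37 to -0.64, adjusted p by edgeR = 0.00691), and the log2 change with 22-B3 was -0.53 (95% interval -0.89 to -0.17, adjusted p by edgeR = 0.152). 22-B3 stood above WT IL-22 by 0.47 on the log2 scale (0.11 to 0.84), which did not pass (adjusted p by edgeR = 0.41). Leaving out a library moved the WT IL-22 change little, from -0.97 without PBS replicate 2 to -1.04 without WT IL-22 replicate 2, but the adjusted p rose to 0.111 without PBS replicate 2, to 0.0871 without the other PBS library, to 0.0543 without WT IL-22 replicate 1, and to 0.0909 with the PBS libraries summed. In the 22-B3 comparison Ccl28 was called without 22-B3 replicate 1. Of the 6 epithelium markers, Cdh1 and Vil1 rose with WT IL-22 (log2 changes 0.72 and 0.72), and Krt8, the most abundant, Epcam, Krt19 and Krt18 had log2 changes of 0.07, -0.15, -0.07 and -0.08. Goblet cell markers summed to 9571 and 9898 CPM with PBS, 6709 and 7219 CPM with WT IL-22, and 6154 and 7432 CPM with 22-B3, and 2 of 6 fell with WT IL-22; the part of both lists in the Ccl28 values was not tested.

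Cxcl16 (ENSMUSG00000018920, chromosome 11, 70453983 to 70459984, minus strand) is a membrane-anchored ligand of Cxcr6 that the protease Adam10 sheds. It had 16.0 and 14.8 CPM with PBS, 6.77 and 9.46 CPM with WT IL-22, and 9.70 and 11.02 CPM with 22-B3. All treated libraries were below both PBS libraries. The log2 change was -0.92 with WT IL-22 (95% interval -1.40 to -0.45, adjusted p by edgeR = 0.0225) and -0.57 with 22-B3 (-1.05 to -0.10, adjusted p by edgeR = 0.212). The WT IL-22 call was lost without WT IL-22 replicate 1 (adjusted p by edgeR = 0.132) and without either PBS library or with these summed (0.164 to 0.184). Its receptor Cxcr6 had 1.13 and 1.51 CPM with PBS, 0.327 and 1.02 CPM with WT IL-22 and 1.12 and 0.835 CPM with 22-B3, and did not pass (log2 change -0.95 with WT IL-22, adjusted p by edgeR = 0.261). Adam10 itself rose with WT IL-22, by 0.61 on the log2 scale (adjusted p by edgeR = 0.0202). Bulk tissue does not show which cells held the Cxcl16 RNA, and the part of cell content in its values was not tested. Cxcl16 overlaps the gene Zmynd15 on the opposite strand, which had 29 to 61 counts, and the strand setting of the counts is not given in the sources used here. Cxcr6 lies within Fyco1 on the opposite strand, which had 558 to 964 counts, so the counts of Cxcr6 may hold reads of it.

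Other epithelial ligands did not pass, although Ccl27a was called lower with WT IL-22 with only these 2 groups fitted or without either 22-B3 library, and Cxcl14 without WT IL-22 replicate 2. Ccl20, which recruits Ccr6-bearing lymphocytes and dendritic cells to lymphoid follicles, had 2.16 and 2.39 CPM with PBS, 1.17 and 1.07 CPM with WT IL-22, and 2.08 and 1.11 CPM with 22-B3. Both treated groups lay below PBS and overlapped each other, at a log2 change of -1.02 with WT IL-22 (adjusted p by edgeR = 0.106), on 20 to 46 counts per library. Ccl27a, a ligand of Ccr10 best known from skin, had a log2 change of -0.96 with WT IL-22 (adjusted p by edgeR = 0.101) and Ccl25, the gut-homing ligand of Ccr9, one of -0.60 (adjusted p by edgeR = 0.147). Cxcl14, a constitutive epithelial and stromal ligand, had 27.5 and 26.0 CPM with PBS, 15.1 and 25.6 CPM with WT IL-22, and 17.7 and 20.2 CPM with 22-B3 (log2 changes -0.39 and -0.50, adjusted p by edgeR = 0.267 and 0.300).

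Cx3cl1 and Cxcl17 had positive log2 changes. Cx3cl1 had 70.9 and 74.8 CPM with PBS, 97.0 and 75.1 CPM with WT IL-22, and 108 and 68.4 CPM with 22-B3. Replicate 1 was the higher library in both treated groups, and the changes of 0.24 and 0.27 did not pass (adjusted p by edgeR = 0.466 and 0.524). Cxcl17, a mucosal ligand, was counted 1 and 3 times with PBS, 13 and 11 times in the WT IL-22 libraries, and 7 and 11 times in the 22-B3 libraries. All 4 treated libraries were above both PBS libraries, at log2 changes of 2.33 and 2.21. Since it passed the filter on low counts only through 1 WT IL-22 and 1 22-B3 library, these values are a description and no test is given for it.

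**Figure D3:**
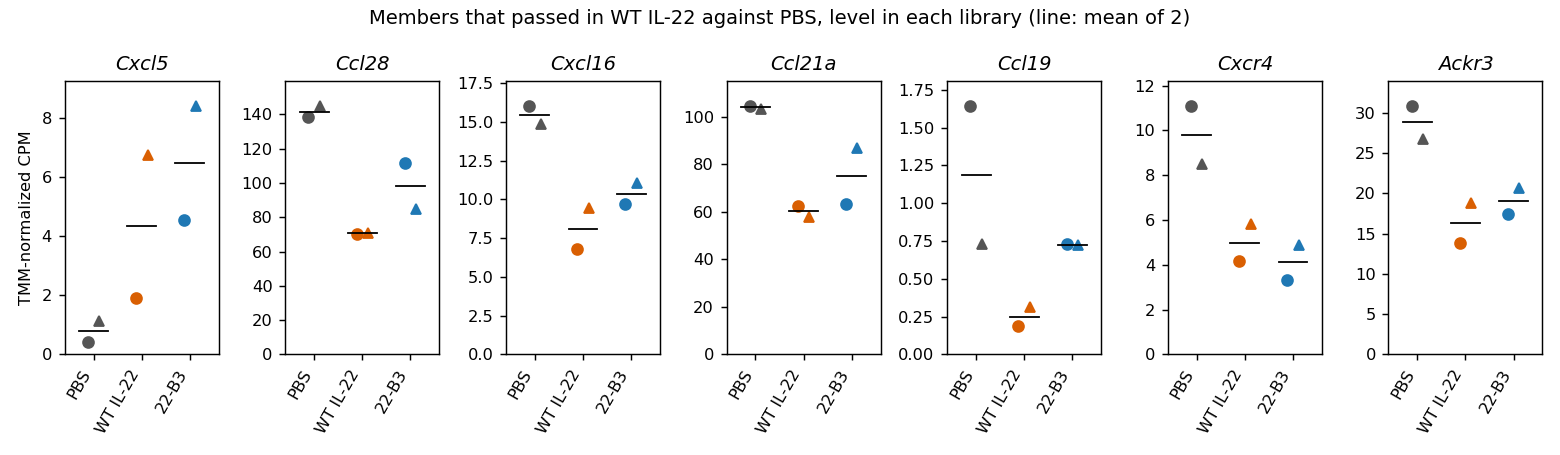
TMM-normalized CPM of the 7 genes that passed in WT IL-22 against PBS, in each library, with the mean of each group as a line and each axis starting at 0; circles are replicate 1 and triangles replicate 2. For Ccl28 the WT IL-22 libraries sit at 70.1 and 71.0 CPM, below both 22-B3 libraries, which sit below both PBS libraries.

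Among ligands of lymphoid organs, the Ccr7 ligands Ccl21a and Ccl19 fell with WT IL-22. They are neighbours on chromosome 4, with Ccl19 at 42754525 to 42756577 and Ccl21a at 42772860 to 42773993, both on the minus strand. They guide dendritic cells and T cells into lymphatics and lymphoid tissue. Ccl21a (ENSMUSG00000094686) had 104 and 103 CPM with PBS, 62.5 and 57.7 CPM with WT IL-22, and 63.3 and 86.7 CPM with 22-B3. All treated libraries were below both PBS libraries, and the 22-B3 pair was widely spread. The log2 change was -0.79 with WT IL-22 (SE 0.169, adjusted p by edgeR = 0.0188) and -0.47 with 22-B3 (95% interval -0.85 to -0.09, adjusted p by edgeR = 0.21). The WT IL-22 call was lost without either WT IL-22 library (adjusted p by edgeR = 0.0895 and 0.0705) and without either PBS library or with these summed (0.162 to 0.17). Ccl21a has near-identical copies in the mouse, so its value is uncertain; the copy Ccl21b was listed at 0 counts in all libraries.

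Ccl19 (ENSMUSG00000071005) was scarce. Its PBS libraries held 32 and 14 counts, its WT IL-22 libraries 4 and 7, and its 22-B3 libraries 13 and 13, or 1.64 and 0.728, 0.187 and 0.311, and 0.729 and 0.724 CPM. Both WT IL-22 libraries were below the other 4. The log2 change with WT IL-22 was -2.22 (95% interval -3.61 to -0.83, adjusted p by edgeR = 0.0411), and the call was lost without either WT IL-22 library (adjusted p by edgeR = 0.237 and 0.0896) and without PBS replicate 2 (0.134). Without PBS replicate 1 the change was -1.52 (adjusted p by edgeR = 0.338), and on log2(FPKM + 1) it was -0.89. The pseudogene Ccl19-ps1, with which reads could be shared, was counted 12 and 11 times with PBS, 3 times in each WT IL-22 library, and 2 and 0 in the 22-B3 libraries. Lymphatic endothelium markers, whose cells make Ccl21a, summed to 109 and 100 CPM with PBS, 120 and 107 CPM with WT IL-22, and 124 and 115 CPM with 22-B3, and among them Flt4 rose with WT IL-22 (log2 change 0.56, adjusted p by edgeR = 0.042). Prox1, another of them, had a log2 change of -0.10. Their part in the Ccl21a and Ccl19 values was not tested.

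Their receptor Ccr7 and their scavenger Ackr4 did not pass. Ccr7 had 2.52 and 2.65 CPM with PBS, 0.701 and 1.60 CPM with WT IL-22, and 1.46 and 0.668 CPM with 22-B3. All treated libraries were below PBS, at log2 changes of -1.16 and -1.28 (adjusted p by edgeR = 0.13 and 0.235). Ackr4, which takes up Ccl19, Ccl21 and Ccl25, had 17.9 and 14.1 CPM with PBS, 9.53 and 10.98 CPM with WT IL-22 and 10.2 and 12.03 CPM with 22-B3, at log2 changes of -0.64 and -0.53 (adjusted p by edgeR = 0.0571 and 0.221). It passed with WT IL-22 in several alternatives, among them upper-quartile scaling and either 22-B3 library left out. Ackr4 lies within Acad11 on the opposite strand, which had 1039 to 2172 counts per library, so the counts of Ackr4 may hold reads of it. Dendritic cell markers, whose migrating cells carry Ccr7, summed to 19.9 and 20.4 CPM with PBS, 12.6 and 19.6 CPM with WT IL-22, and 16.1 and 13.9 CPM with 22-B3, and 1 of 6 (Cd209a) fell with WT IL-22; their part in the result was not tested.

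In the Cxcl12 axis, the receptors Cxcr4 and Ackr3 passed as lower with WT IL-22, and the ligand did not pass. Whether ligand and receptors differed was not tested. Cxcl12, made by stromal cells, holds leukocytes in tissues through Cxcr4, and Ackr3 clears it. Cxcl12 had 126 and 131 CPM with PBS, 94.4 and 113 CPM with WT IL-22, and 91.9 and 93.4 CPM with 22-B3. All treated libraries were below PBS, yet the log2 changes of -0.31 and -0.47 did not pass (adjusted p by edgeR = 0.153 and 0.153). Cxcr4 (ENSMUSG00000045382, chromosome 1, 128588199 to 128592293, minus strand) had 11.1 and 8.48 CPM with PBS, 4.16 and 5.82 CPM with WT IL-22, and 3.31 and 4.90 CPM with 22-B3. Every treated library was below both PBS libraries, with the 22-B3 mean the lower. The log2 change was -0.97 with WT IL-22 (95% interval -1.60 to -0.34, adjusted p by edgeR = 0.0462) and -1.25 with 22-B3 (-1.90 to -0.60, adjusted p by edgeR = 0.0833). The WT IL-22 call was lost without WT IL-22 replicate 1 (adjusted p by edgeR = 0.238) and without replicate 2 (adjusted p by edgeR = 0.0583), and without either PBS library or with these summed (0.174 to 0.298), while DESeq2 and edgeR without a low-count filter called Cxcr4 lower with 22-B3.

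Ackr3 (ENSMUSG00000044337, chromosome 1, 90203980 to 90216751, plus strand) had 30.9 and 26.8 CPM with PBS, 13.9 and 18.8 CPM with WT IL-22, and 17.4 and 20.7 CPM with 22-B3. No treated library reached the PBS range. The log2 change was -0.82 with WT IL-22 (95% interval -1.26 to -0.38, adjusted p by edgeR = 0.026) and -0.60 with 22-B3 (-1.04 to -0.16, adjusted p by edgeR = 0.175). The WT IL-22 call was lost without WT IL-22 replicate 1 (adjusted p by edgeR = 0.163) and without either PBS library or with these summed (0.155 to 0.215). Fibroblast markers summed to 1811 and 1800 CPM with PBS, 1287 and 1928 CPM with WT IL-22, and 1576 and 1459 CPM with 22-B3, and smooth muscle markers to 12352 and 12480, 5985 and 8619, and 8521 and 10665 CPM; 1 of 6 fibroblast and 3 of 6 smooth muscle markers fell with WT IL-22. Blood endothelium markers summed to 141 and 131 CPM with PBS, 146 and 158 CPM with WT IL-22, and 139 and 135 CPM with 22-B3. Of these, 1 of 6 rose and 0 fell with WT IL-22. The part of these lists in the result was not tested. In bulk tissue, fewer cells of a type and less RNA per cell cannot be told apart.

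For the B cell follicle axis, Cxcl13 had 10.6 and 8.59 CPM with PBS, 7.94 and 7.07 CPM with WT IL-22, and 9.53 and 5.46 CPM with 22-B3. Cxcl13 draws B cells into follicles through Cxcr5. Cxcr5 had 4.67 and 5.72 CPM with PBS, 2.76 and 3.15 CPM with WT IL-22, and 2.86 and 1.67 CPM with 22-B3. All treated libraries were below PBS, at log2 changes of -0.81 and -1.20 (adjusted p by edgeR = 0.0991 and 0.123). Cxcr5 was called lower with WT IL-22 with only these 2 groups fitted or without either 22-B3 library. The 8 B cell markers summed to 56.2 and 58.8 CPM with PBS, 27.2 and 40.4 CPM with WT IL-22, and 40.8 and 11.8 CPM with 22-B3. Their median log2 change was -0.69 with WT IL-22 and -1.03 with 22-B3, and 0 of the 8 passed in either comparison in edgeR. The lowest library for that sum, 22-B3 replicate 2, was also the lowest for Cxcr5, for Ccr7 and for Ccr6. Ccr6, a receptor of B cells and T cells, stood at 0.278 CPM there and at 0.78 to 1.85 CPM elsewhere. Low values in that library were not limited to these receptors. Cxcr3, Ccr10, Ccr4, Ccr9, Xcr1, Ackr2 and the T cell marker sum were also lowest there. In it 13 of 18 receptors and 12 of 26 ligands were lower than in 22-B3 replicate 1, beside 51% of all genes. The part of B cell content in the values of Cxcl13 and the receptors was not tested.

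**Figure D4:**
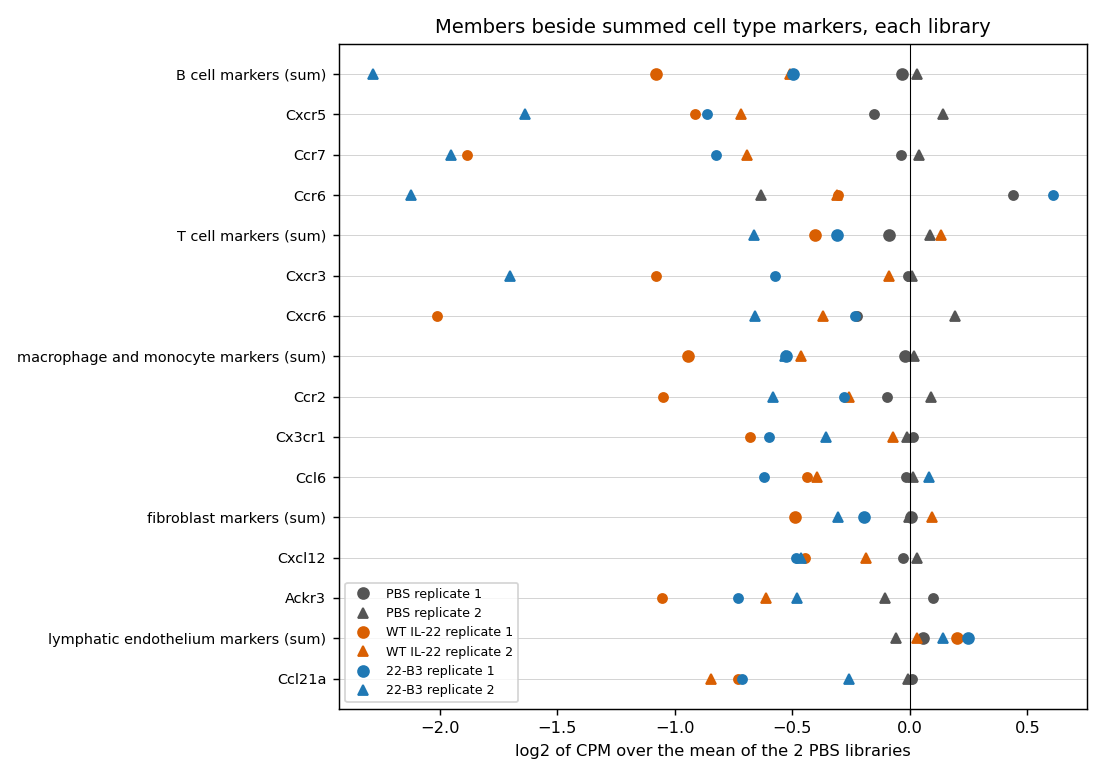
Log2 ratio of CPM in each library to the mean of the PBS libraries, for selected ligands and receptors and for the summed CPM of cell type marker lists; colours are groups and marker shapes replicates. In 22-B3 replicate 2 the B cell marker sum (11.8 CPM) and Cxcr5 (1.67 CPM) are the lowest of the 6 libraries, while the lymphatic endothelium sum lies between 100 and 124 CPM in all libraries.

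Receptors of T cells and myeloid cells did not pass. Cxcr3, the receptor of Cxcl9 and Cxcl10, had 1.08 and 1.09 CPM with PBS, 0.514 and 1.02 CPM with WT IL-22, and 0.729 and 0.334 CPM with 22-B3. Ccr2, which brings monocytes out of blood, had 7.96 and 9.05 CPM with PBS, 4.11 and 7.11 CPM with WT IL-22, and 7.01 and 5.68 CPM with 22-B3 (log2 changes -0.60 and -0.42, adjusted p by edgeR = 0.165 and 0.449). Cx3cr1, carried by resident macrophages, had 17.8 and 17.5 CPM with PBS, 11.02 and 16.8 CPM with WT IL-22, and 11.7 and 13.8 CPM with 22-B3. In each case every treated library was below both PBS libraries. The macrophage and monocyte markers summed to 605 and 622 CPM with PBS, 319 and 445 CPM with WT IL-22, and 426 and 425 CPM with 22-B3, and 4 of 8 fell and 1 rose with WT IL-22; their part in the receptor values was not tested. Lyz2 was the most abundant marker of this list, ranging over 339 to 348 CPM (PBS), 120 to 176 CPM (WT IL-22) and 174 to 189 CPM (22-B3). It weighed heavily in the sums. The 4 that fell were Lyz2, C1qa, C1qb and C1qc, and Cd14 rose. Csf1r, Cd68 and Mrc1 changed little under WT IL-22 (log2 changes -0.09, -0.10 and -0.06). The exon counts of Cx3cr1 may hold reads of other genes, since its annotated span covers or touches 5 of them.

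The remaining receptors did not pass either. Ccr1, the receptor of several inflammatory CC ligands, had 9.24 and 9.05 CPM with PBS, 5.05 and 8.09 CPM with WT IL-22, and 7.80 and 7.91 CPM with 22-B3, all treated libraries being below PBS. Its log2 change was -0.48 with WT IL-22 and -0.22 with 22-B3 (adjusted p by edgeR = 0.202 and 0.655). Ccr10, the receptor of Ccl28, had 2.21 and 2.29 CPM with PBS, 1.87 and 2.84 CPM with WT IL-22 and 2.36 and 1.17 CPM with 22-B3, with overlapping groups in both comparisons. Ccr10 lies within Cntnap1 on the opposite strand, which had 90 to 253 counts, so the counts of Ccr10 may hold reads of it. Of the plasma cell markers, whose cells carry Ccr10, Sdc1, which epithelium also expresses, made up most of the sum, at 226 to 277 CPM of 243 to 296 CPM. Mzb1 had log2 changes of -0.55 with WT IL-22 and -0.54 with 22-B3, and the 5 markers had medians of -0.18 and -0.37; their part in the Ccr10 values was not tested. Xcr1, a receptor of cross-presenting dendritic cells, had log2 changes of -0.41 and -0.54. Ccr9, on at most 14 counts, had changes of -0.68 and -0.73, and Ccr4, on at most 17 counts, of 0.12 and -1.27. Adjusted p by edgeR for Xcr1, Ccr9 and Ccr4 ran from 0.446 to 0.933. Ccr9 overlaps Lztfl1 on the opposite strand, which had 199 to 330 counts, so the counts of Ccr9 may hold reads of it. Ccr4 stood at 0.257 and 0.572 CPM with PBS, 0.140 and 0.755 CPM with WT IL-22, and 0.224 and 0.111 CPM with 22-B3, with both 22-B3 libraries below PBS. Ackr1, which carries chemokines across venular endothelium, had 4.83 and 4.11 CPM with PBS, 2.48 and 3.42 CPM with WT IL-22 and 4.04 and 2.73 CPM with 22-B3 (adjusted p by edgeR = 0.193 and 0.499). Ackr2, a scavenger of inflammatory CC ligands, was the atypical receptor with overlapping groups, at log2 changes of 0.11 and 0.01. In WT IL-22 replicate 1, 16 of 18 receptors and 18 of 26 ligands were lower than in replicate 2, beside 50% of all genes, and without replicate 1 edgeR called 1 gene of the family, Cxcl5, with WT IL-22.

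Ligands of monocytes, eosinophils and effector T cells showed no call. Ccl6 had 575 and 587 CPM with PBS, 429 and 442 CPM with WT IL-22, and 378 and 615 CPM with 22-B3. The WT IL-22 libraries were both below PBS (log2 change -0.42, 95% interval -0.93 to 0.09, adjusted p by edgeR = 0.218), while the 22-B3 libraries lay on either side of it. It passed as lower with WT IL-22 when either 22-B3 library was left out. Its neighbour Ccl9, on 342 to 601 counts, had log2 changes of -0.16 and -0.25. The eosinophil-attracting ligand Ccl11 had 16.7 and 15.3 CPM with PBS, 12.1 and 12.6 CPM with WT IL-22, and 7.29 and 13.0 CPM with 22-B3 (log2 changes -0.38 and -0.66, adjusted p by edgeR = 0.317 and 0.232). Its receptor Ccr3 had at most 20 counts and was not tested.

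The inflammatory CC ligands were low throughout. Ccl2, the main Ccr2 ligand, had 4 to 25 counts per library, with 1.40 CPM in 22-B3 replicate 1 and 0.208 to 0.616 CPM in the others (log2 changes 0.20 and 1.15, adjusted p by edgeR = 0.874 and 0.43). Ccl7, another Ccr2 ligand, had 17 to 48 counts, and Ccl12, known from the mouse, 19 to 29. Ccl8, the most abundant of them, had 2.41 and 1.87 CPM with PBS, 1.26 and 1.64 CPM with WT IL-22, and 3.20 and 2.39 CPM with 22-B3, both WT IL-22 libraries being the lowest. Ccl5, a ligand made by T cells, had 2.05 and 1.14 CPM with PBS, 0.654 and 1.02 CPM with WT IL-22, and 2.19 and 1.22 CPM with 22-B3 (log2 changes -0.93 and 0.09). The Ccr4 ligand Ccl22 had 2.41 and 3.49 CPM with PBS, 1.12 and 3.15 CPM with WT IL-22, and 1.91 and 2.51 CPM with 22-B3, with overlapping groups. Ccl22 and its relative Ccl17 had log2 changes of -0.46 and -0.49 with WT IL-22, and the eosinophil-attracting Ccl24 had one of -0.46, all with adjusted p over 0.5 in edgeR. The interferon-inducible Cxcl9 ranged from 0.668 to 3.33 CPM and Cxcl10 had 1.39 and 2.13 CPM with PBS, 1.68 and 1.64 CPM with WT IL-22, and 2.41 and 1.56 CPM with 22-B3, with overlapping groups and log2 changes between -0.08 and 0.44. Cxcl10 lies within Art3 on the opposite strand, which had 297 to 443 counts, so the counts of Cxcl10 may hold reads of it.

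Too few counts to judge were found for 16 genes. Besides Cxcl1, Cxcl2, Cxcl3, Cxcl15, Cxcr1, Cxcr2, Ccl21b and Ccr3, these were Xcl1 with at most 11 counts in a library, Ccl3 and Ccr8 with at most 5, Ccl4 with at most 3, Ccl1 with at most 2, Ccr1l1 with at most 1, and Ccl26 and Ccl27b at 0 counts everywhere. Of the 16, 10 had fewer than 5 counts in every library, and 4 had 0 in all.

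22-B3 and WT IL-22 were given at the same dose and time, and their difference was tested for each of the 44 genes. edgeR called 0, with 3 at an unadjusted p under 0.05, all higher with 22-B3; DESeq2 and limma also called 0, with 1 and 3 at an unadjusted p under 0.05. Among all genes 5.09% were higher and 4.82% lower at that unadjusted p. The 3 were Ccl28, Ccl19 (log2 difference 1.52, 95% interval 0.06 to 2.97) and Ccl8 (0.94, 0.15 to 1.73), with adjusted p by edgeR = 0.41, 0.494 and 0.451. For the other genes that passed with WT IL-22, the difference was 0.58 for Cxcl5 (-0.72 to 1.87), 0.35 for Cxcl16 (-0.13 to 0.83), 0.32 for Ccl21a (-0.06 to 0.70), -0.28 for Cxcr4 (-0.94 to 0.37) and 0.22 for Ackr3 (-0.23 to 0.66). Each of these intervals includes 0, and the widest, for Cxcl5, reaches 1.87. Among all genes tested 0.032% passed as higher and 0.0704% as lower with 22-B3 (0.102% in either direction). The 22-B3 libraries lay above both WT IL-22 libraries for 7 of the 44 genes, beside 17.6% of all genes, and below them for 1, Cxcl12, beside 17.3%. Of the 44, 17 had a negative log2 difference, beside 49.7%.

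Partners of the pathway, from lists that are not part of the name rule, included calls in both directions. Of 34 tested partners 3 rose and 4 fell with WT IL-22, beside 9.9% and 6.74% of all genes. Whether these shares differed from those of all genes was not tested. Their median log2 change was 0.14 with WT IL-22 and 0.08 with 22-B3. Pf4, a platelet CXC chemokine with another name, had 16.1 and 15.0 CPM with PBS, 5.98 and 7.29 CPM with WT IL-22 and 8.13 and 11.7 CPM with 22-B3 (log2 change with WT IL-22 -1.23, adjusted p by edgeR = 0.0111). Rarres2, the precursor of the chemoattractant chemerin, fell by 0.89, and the signal-dampening genes Rgs1 and Rgs18 by 1.13 and 1.91 on the log2 scale (adjusted p by edgeR = 0.0122, 0.0107 and 0.0487). Besides Adam10, the cytoskeletal adaptor Elmo1 rose by 0.97 and the receptor kinase Grk6 by 0.52 (adjusted p by edgeR = 0.0119 and 0.0328).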

How the data were processed

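Libraries were made from mRNA-enriched colon RNA, per the labels' protocols. The submitters' processing notes name STAR 2.5 and mm10; the counter, annotation release and strand setting are not given in the sources used here. The deposited count table holds raw read counts per gene, without normalization. The deposited FPKM values equal those counts divided by gene length and column total (largest relative deviation 5e-12).

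Genes were kept by filterByExpr (15628 genes), scaled by TMM and fitted with 1 mean per group over all 6 libraries in edgeR 4.0.16 (R 4.3.3), with the quasi-likelihood test and Benjamini-Hochberg adjustment over all genes tested; genes with an adjusted p under 0.05 passed. CPM values are TMM-normalized. Intervals are at 95% and rest on the fitted spread. DESeq2 1.42.0, limma 3.58.1 on log2 FPKM (pseudocount 0.1 or 1), a replicate block, left-out libraries and changed filters or scalings were alternatives. The edgeR step was tested on simulated data. The family, gene lists and tests were chosen with earlier results of these data known. All tests and counts cover the whole family; 1 tested gene is not reported here by name. Of the rest, those that passed are given in full, other tested genes by level or change, untested genes by counts.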

Additional observations from a re-analysis of the deposited data

How the results depend on the processing

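In WT IL-22 against PBS 7 genes of the family passed. The number was 12 with only the 2 groups compared and 0 with the PBS libraries summed, and ran from 0 (without either PBS library) to 11 (without either 22-B3 library) when 1 library was left out; it was 1 without WT IL-22 replicate 1 and 4 without replicate 2. In 22-B3 against PBS, where 0 passed, DESeq2 called 2 (Cxcl5 and Cxcr4), edgeR without a low-count filter called 1 (Cxcr4), with only the 2 groups compared 1 (Cxcl5), and with a replicate block 4 (Ccl28, Cxcl5, Cxcr4 and Cxcr5); with 1 library left out the number ran from 0 to 6, the highest without 22-B3 replicate 2. In 22-B3 against WT IL-22 all 16 alternatives gave 0. The cause of these differences was not tested. The share of all genes called under each alternative is not given here. The counts therefore do not show whether the family differed from other genes. The number of family genes tested also changed where the filter was applied again. It was 46 or 47 with 1 library left out, 56 without a low-count filter and 22 with a mean of at least 50 counts. No log2 change of the 7 genes changed sign in the alternatives run, and over them the adjusted p without a PBS library or with the PBS libraries summed ran from 0.0871 to 0.338. For Ccl19 DESeq2 gave no adjusted p. Same-numbered libraries deviated together at correlations of 0.062, 0.0488 and 0.29, so the numbers were not taken to pair libraries; with the replicate block 8 genes passed with WT IL-22. Upper-quartile scaling moved the median of all genes to -0.13 with WT IL-22 and -0.10 with 22-B3. Genes that did not reach about 0.512 CPM in at least 2 libraries were not tested. Changes that rest on few counts are uncertain, such as that of Ccl19, with 4 and 7 counts in its WT IL-22 libraries.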

Other observations

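Several ligands differed between the 22-B3 libraries, in both directions, while Cxcl12 hardly did (91.9 and 93.4 CPM). Ccl6, Ccl9 and Ccl11 were lower in replicate 1 (378, 19.2 and 7.29 CPM) than in replicate 2 (615, 31.7 and 13.0 CPM), while Cx3cl1 and Ccl28 were higher there (108 and 111 CPM, against 68.4 and 84.5 CPM). Among the 22 tested genes with a mean of at least 50 counts, the median ratio of the higher to the lower library was 1.07 for PBS, 1.27 for WT IL-22 and 1.42 for 22-B3. Without 22-B3 replicate 2, edgeR called Ccl6, Ccl9, Ccl11, Ccl21a, Cxcr4 and Cx3cl1 in 22-B3 against PBS, and with both libraries none of them.

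Cxcl11, annotated in the tables as a polymorphic pseudogene and so outside the family as defined here, had 4 counts in WT IL-22 replicate 1 and 0 in the other libraries. Ccl19-ps3 had 0 counts in all 6.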
